A study of Mus musculus with 2 samples.

Results

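The genes described here are 33 genes of protein folding, disulfide formation and degradation in the endoplasmic reticulum (ER), among 30943 named genes on 2 expression arrays of mouse stomach. They were taken by symbol from a list of ER chaperones, their cofactors, protein disulfide isomerases, oxidases and components of ER-associated degradation. No measured value set their membership, but earlier results of these arrays were known when the list and the thresholds were chosen. Each of the 33 genes had 1 probe set on the array, of 11 to 33 probes, so no choice between probe sets was needed. The MIST1-LSL array came from 1 mouse of genotype Atp4bCre; MIST1-LSL, and the Control array from 1 mouse of genotype Atp4bCre. Both mice were 12 weeks old and of a mixed background repeatedly backcrossed to C57/B6, and both carried Atp4bCre, which places Cre recombinase under a promoter active in the acid-secreting parietal cells. In the MIST1-LSL mouse, Cre is meant to switch on MIST1 (encoded by Bhlha15), a transcription factor of cells that make large amounts of secretory protein. RNA was amplified before labelling and came from stomach tissue with all of its cell types, so a difference in a gene can reflect fewer cells of a type or less RNA per cell, which cannot be told apart here.

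Secreted and membrane proteins are folded in the ER. The chaperone BiP (Hspa5) binds exposed stretches of new chains with the help of J-domain partners, calnexin and calreticulin hold glycoproteins through their sugars, and disulfide isomerases form and shuffle disulfide bonds. Proteins that do not fold are recognised, passed back through the membrane, tagged with ubiquitin and degraded, a route called ER-associated degradation (ERAD). When unfolded protein accumulates, the sensors ATF6, IRE1 (Ern1) and PERK (Eif2ak3) raise transcription of many of these genes, in part through short promoter elements bound by ATF6 or XBP1 together with NF-Y. Cells that secrete zymogens, chief cells of the stomach and acinar cells of the pancreas among them, are rich in rough ER and in these proteins.

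With 1 array per genotype there was no replicate check and no test between genotypes. Values are log2 levels from RMA, and each difference is MIST1-LSL minus Control. Across 41345 probe sets the arrays had medians of 4.60 (MIST1-LSL) and 4.64 (Control) and correlated at r = 0.971, across probe sets that are not independent replicates. A gene was taken as above the floor when its higher level was at least 4.62, the median over every value of both arrays. This held for 17353 named genes and for all 33 members. Bhlha15 itself read 5.30 on the MIST1-LSL array and 5.26 on the Control array. Which part of its transcript is probed is not given, so the genotype rests on the labels. The only spread that these arrays hold is the one between probe sets of the same gene, whose differences had an SD of 0.21 over the 483 genes that had more than 1 such probe set; it does not cover variation between mice.

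Some of these genes carry an ER stress response element (ERSE) near their start. RefSeq promoter windows (assembly GRCm38.p6, the 250 bases before and the 50 bases from each gene start) were available for 29 of the 33 members; Manf, Hyou1, Derl1 and Ube2g2 were not matched. Windows were searched on both strands for the ERSE (CCAAT and CCACG with 9 bases of any kind between them), the related ERSE-II (ATTGG and CCACG with 1 base between them) and the unfolded protein response element UPRE (TGACGTGG), whose opposite strand contains the CCACG letters of the ERSE. An ERSE lay in the windows of 9 of 29 members and an ERSE-II in those of 2 further members, against 0.119% and 0.0365% of all 32851 promoter windows. Counted from the gene start, the first bases of these elements lay between -212 (Hsp90b1) and 8 (Dnajb11). The sites of these 11 members are shown, and the other 18 members with a window had neither element. Capitals mark the fixed letters of the element and lower case its spacer and flanks. Each site is written in the direction in which the element reads.
Hspa5, chr2:34772020-34772048, plus strand: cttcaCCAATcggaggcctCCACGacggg
Hsp90b1 first site, chr10:86705633-86705661, minus strand: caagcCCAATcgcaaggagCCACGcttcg
Hsp90b1 second site, chr10:86705528-86705556, plus strand: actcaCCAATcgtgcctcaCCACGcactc
Pdia6, chr12:17266486-17266514, plus strand: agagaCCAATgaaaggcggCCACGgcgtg
Calr, chr8:84847070-84847098, plus strand: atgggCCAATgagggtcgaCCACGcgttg
Canx, chr11:50325795-50325823, minus strand: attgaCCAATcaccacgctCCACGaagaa
Dnajc3, chr14:118937822-118937850, plus strand: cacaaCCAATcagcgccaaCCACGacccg
Creld2, chr15:88819515-88819543, minus strand: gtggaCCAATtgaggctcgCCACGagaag
Ero1lb, chr13:12565677-12565705, minus strand: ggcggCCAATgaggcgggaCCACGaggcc
Syvn1, chr19:6046527-6046555, plus strand: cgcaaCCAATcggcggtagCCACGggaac
Dnajb11 (ERSE-II), chr16:22857847-22857867, plus strand: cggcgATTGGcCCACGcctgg
Herpud1 (ERSE-II), chr8:94386372-94386392, plus strand: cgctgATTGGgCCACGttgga

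Hsp90b1 was the only member with an ERSE at 2 places, and the 250 bases before its start are given to show their spacing. The first site reads along the gene and the second against it, so the second appears as the reverse complement. The same stretch of Canx and of P4hb, which lacked a full match and was among the few members with a higher level on the MIST1-LSL array, is given beside it.
Hsp90b1, chr10:86705445-86705694, minus strand: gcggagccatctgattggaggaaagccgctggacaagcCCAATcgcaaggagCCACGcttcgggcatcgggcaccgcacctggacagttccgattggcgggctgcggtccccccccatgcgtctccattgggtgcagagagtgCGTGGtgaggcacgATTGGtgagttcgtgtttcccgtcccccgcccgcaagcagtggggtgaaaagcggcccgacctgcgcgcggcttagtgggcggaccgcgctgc
Canx, chr11:50325674-50325923, minus strand: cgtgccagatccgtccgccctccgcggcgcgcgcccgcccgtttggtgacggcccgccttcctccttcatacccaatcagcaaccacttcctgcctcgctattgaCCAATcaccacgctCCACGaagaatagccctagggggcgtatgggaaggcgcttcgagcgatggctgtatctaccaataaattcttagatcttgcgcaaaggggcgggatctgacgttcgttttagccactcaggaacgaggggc
P4hb, chr11:120573254-120573503, minus strand: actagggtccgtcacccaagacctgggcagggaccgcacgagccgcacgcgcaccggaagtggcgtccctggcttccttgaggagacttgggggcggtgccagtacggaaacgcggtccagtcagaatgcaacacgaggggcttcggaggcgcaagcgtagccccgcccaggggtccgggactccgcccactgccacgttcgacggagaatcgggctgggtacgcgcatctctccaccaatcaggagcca

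The ER genes as a group read slightly lower on the MIST1-LSL array, by amounts too small for the size rule used. None of the 33 was 2-fold apart between the arrays, against 1.44% of all genes above the floor. The member differences ran from -0.39 for Dnajb11 to 0.55 for Ube2g2, with a median of -0.12, where all genes above the floor had a median of -0.03. Of the 33 members, 26 were below 0, 6 were above it and Pdia5 read the same on both arrays; 53.1% of all genes were below 0. At the smaller size of 1.2-fold, 7 members were lower (21.2%), which is near the 19.8% of all genes, and 1 member was higher (3.03%), against 16.1% of all genes. The count of 7 came to 4 (12.1%) when the arrays were centred on their medians or corrected by loess, against 16.3% and 17.1% of all genes, and to 5 (15.2%) after quantile normalization, against 17.7% of all genes. With centring or loess 25 members (75.8%) were below 0, against 48.0% and 49.2% of all genes.

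**Figure D1:**
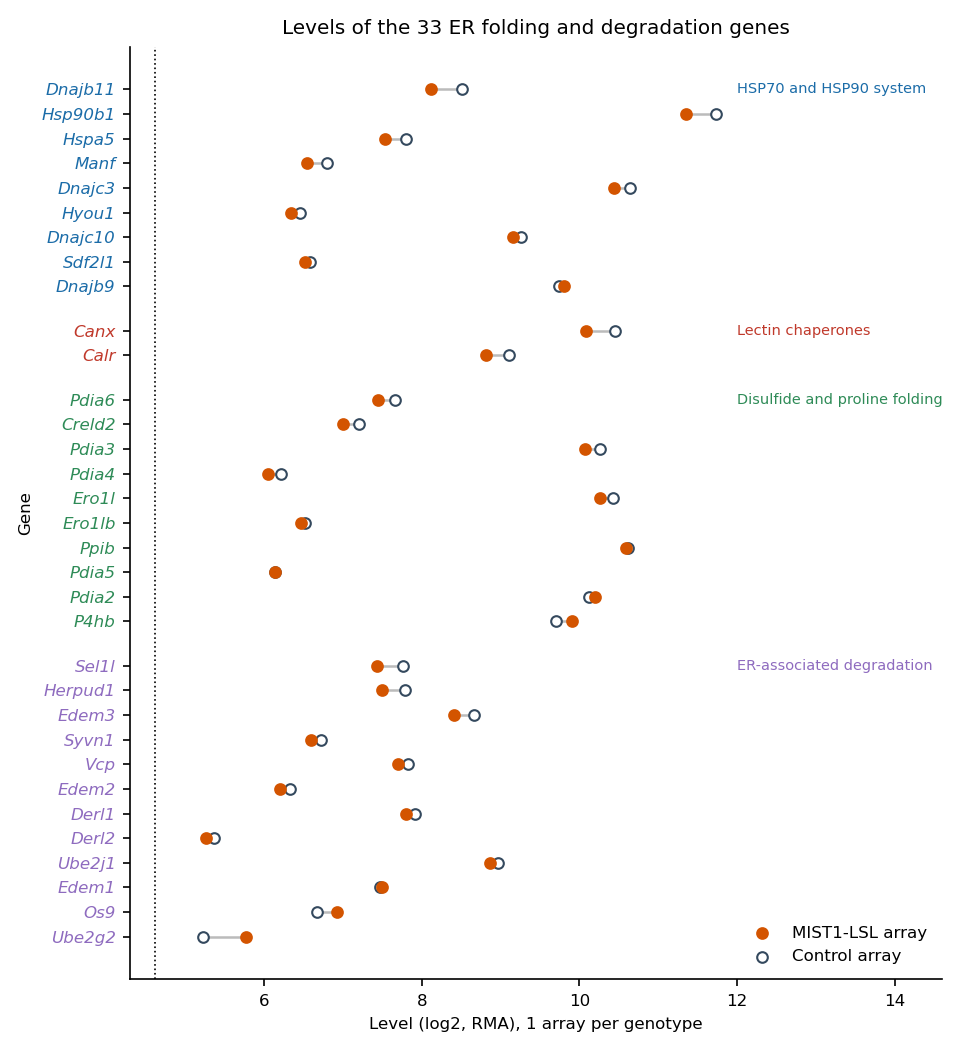
Level of each of the 33 genes (horizontal axis, log2 RMA level) on the MIST1-LSL array (filled) and the Control array (open), with genes grouped by role down the page and the dotted line at the floor of 4.62. The 2 points of most genes lie close together, and the filled point is to the left of the open one for 26 of the 33 genes.

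Genes of similar level had medians closer to 0. Among the 10711 genes whose mean level lay between those of the lowest and the highest member, the median difference was -0.02, 53.0% were below 0 and 17.7% were at least 1.2-fold lower. Taken by level, the members between 7 and 8 had a median of -0.21 with 7 of 8 below 0. All genes at that level had a median of -0.03 with 53.4% below 0. The 7 members above 10 had a median of -0.19 with 6 below 0, and all genes at that level had a median of -0.01 with 52.7% below 0. The 3 members between 9 and 10, which were Dnajb9, Dnajc10 and P4hb, had a median of 0.06 with 1 below 0. Of all genes between 9 and 10, 57.7% were below 0.

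The chaperones of the HSP70 and HSP90 system had the lower readings together with the lectin chaperones. Of the 9 genes of the HSP70 and HSP90 group, 8 were below 0 (88.9%, against 53.1% of all genes above the floor). The group had a median of -0.20 and a range from -0.39 to 0.06. Dnajb11, a J-domain partner that delivers unfolded chains to BiP, read 8.12 on the MIST1-LSL array and 8.51 on the Control array, a 1.31-fold lower level and the largest downward difference among the members. Hsp90b1, the ER form of HSP90 known as endoplasmin, read 11.35 on the MIST1-LSL array and 11.73 on the Control array, 1.30-fold lower. Hspa5 read 7.53 on the MIST1-LSL array and 7.80 on the Control array, 1.21-fold lower. These 3 genes each hold a stress element, an ERSE-II in Dnajb11 and ERSE copies in Hsp90b1 and Hspa5.

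The remaining cofactors of BiP lay closer to 0. Manf, a small ER-resident and secreted protein induced by ER stress, read 6.54 on the MIST1-LSL array and 6.80 on the Control array, a difference of -0.26. Dnajc3, a J-domain co-chaperone that also restrains PERK, read 10.44 on the MIST1-LSL array and 10.65 on the Control array, a difference of -0.20. Both differences are about as large as the SD of 0.21 between probe sets of 1 gene. Hyou1, a nucleotide exchange factor for BiP, read 6.34 on the MIST1-LSL array and 6.46 on the Control array, a difference of -0.12. Dnajc10, a J-domain protein with reductase activity, read 9.16 on the MIST1-LSL array and 9.25 on the Control array, a difference of -0.09. Neither gap exceeded the SD between probe sets. Sdf2l1, which binds Dnajb11 protein, read 6.52 on the MIST1-LSL array and 6.59 on the Control array. Dnajb9, a J-domain protein that represses IRE1, was the only gene of the group with a higher level on the MIST1-LSL array, at 9.80 against 9.74 on the Control array.

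Both lectin chaperones read lower on the MIST1-LSL array. Canx, encoding the membrane-bound calnexin, read 10.09 on the MIST1-LSL array and 10.46 on the Control array, 1.29-fold lower. Calr, encoding its soluble counterpart calreticulin, read 8.82 on the MIST1-LSL array and 9.10 on the Control array, 1.22-fold lower. These 2 genes were among the 7 members past 1.2-fold, and each had an ERSE in the window shown. The oxidoreductase Pdia3, which works with both on glycoproteins, differed by -0.19, with 10.08 on the MIST1-LSL array and 10.27 on the Control array.

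The disulfide and proline folding enzymes differed less. Among these 10 genes the median was -0.10, and 7 were below 0 (70%, against 53.1% of all genes above the floor). None of the 10 was 1.2-fold apart in either direction, against 19.8% of all genes lower and 16.1% higher. Pdia6, a disulfide isomerase that limits IRE1 activity, read 7.45 on the MIST1-LSL array and 7.66 on the Control array, and Creld2, a disulfide isomerase-like protein induced by ER stress, read 6.998 on the MIST1-LSL array and 7.21 on the Control array; both differed by -0.21. Pdia4, a further isomerase, read 6.04 on the MIST1-LSL array and 6.22 on the Control array, a difference of -0.17. These 3 genes lay on the lower side within 1.2-fold. Ero1l, the widely expressed oxidase that recharges the isomerases, read 10.26 on the MIST1-LSL array and 10.42 on the Control array, a difference of -0.16. Its paralogue Ero1lb, a form abundant in pancreas, read 6.47 on the MIST1-LSL array and 6.52 on the Control array.

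The enzymes of this group that were level or higher on the MIST1-LSL array were Pdia5, Pdia2 and P4hb. Pdia5 read 6.14 on both arrays, and the ER cyclophilin gene Ppib, whose product isomerises proline bonds, read 10.59 on the MIST1-LSL array and 10.62 on the Control array. Pdia2, the isomerase named for its abundance in pancreas, read 10.20 on the MIST1-LSL array and 10.12 on the Control array, a difference of 0.08. P4hb, the founding disulfide isomerase and a subunit of prolyl hydroxylase in collagen synthesis, read 9.91 on the MIST1-LSL array and 9.70 on the Control array, a difference of 0.21 that equals the SD between probe sets.

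**Figure D2:**
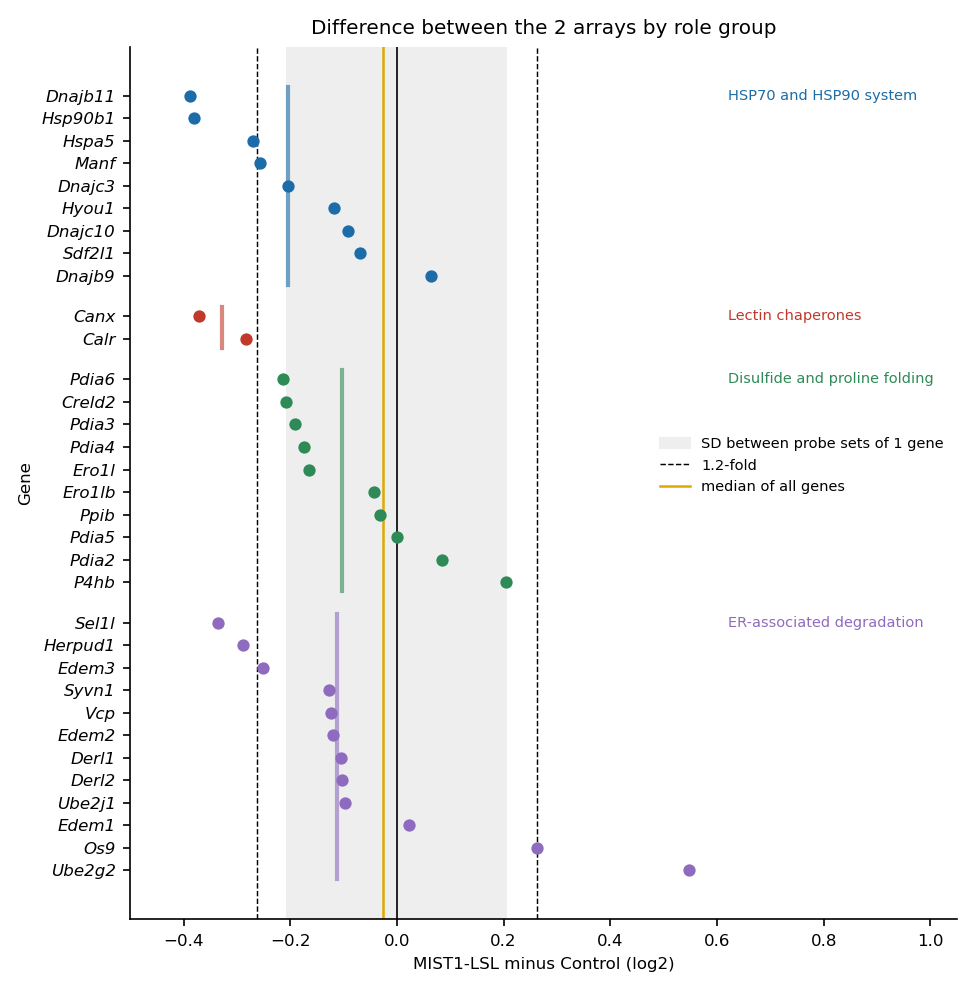
Difference of each gene between the arrays (horizontal axis, MIST1-LSL minus Control, log2), grouped by role down the page, with coloured bars at the median of each group, a grey band for the SD of 0.21 between probe sets of 1 gene and dashed lines at 1.2-fold. Group medians lie at -0.20, -0.33, -0.10 and -0.11 from top to bottom, and Ube2g2 at 0.55 is the only point right of the dashed lines.

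The degradation genes held both the highest difference of the list and some of the lowest. Of these 12 genes 9 were below 0 (75%, against 53.1% of all genes above the floor), with a median of -0.11 for the 12. Sel1l, the adaptor that organises the ubiquitin ligase complex in the ER membrane, read 7.43 on the MIST1-LSL array and 7.77 on the Control array, 1.26-fold lower. Its partner Syvn1, the ligase also called HRD1, read 6.59 on the MIST1-LSL array and 6.72 on the Control array, a difference of -0.13. Herpud1, a stress-induced membrane protein of the same complex, read 7.50 on the MIST1-LSL array and 7.78 on the Control array, 1.22-fold lower. Sel1l and Herpud1 were thus past 1.2-fold and Syvn1 was within the SD between probe sets.

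The lectins and mannosidase-like proteins that mark glycoproteins for degradation did not share a direction. Edem3 read 8.41 on the MIST1-LSL array and 8.66 on the Control array, a difference of -0.25, while Edem2 read 6.21 on the MIST1-LSL array and 6.33 on the Control array. Edem1 was nearly level, at 7.50 on the MIST1-LSL array and 7.48 on the Control array. Os9, a lectin that hands glycoproteins to the Sel1l complex, read 6.93 on the MIST1-LSL array and 6.67 on the Control array, a difference of 0.26 that lay just under 1.2-fold. Ube2g2, a ubiquitin-conjugating enzyme that works with ER ligases, read 5.77 on the MIST1-LSL array and 5.22 on the Control array, a 1.46-fold higher level. It was the only member at least 1.2-fold higher as reported, and its levels were among those nearest to the floor of 4.62. Os9 passed 1.2-fold as well after quantile normalization (0.27), median centring (0.30) and loess (0.29).

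The channel and extraction steps of degradation read within 0.13 of the Control array. Derl1 and Derl2, membrane proteins through which substrates leave the ER, differed by -0.10 each, with 7.81 and 5.26 on the MIST1-LSL array and 7.91 and 5.36 on the Control array. Vcp, the ATPase that pulls substrates into the cytosol, read 7.70 on the MIST1-LSL array and 7.82 on the Control array, a difference of -0.12. Ube2j1, a membrane-anchored ubiquitin-conjugating enzyme, read 8.87 on the MIST1-LSL array and 8.96 on the Control array, a difference of -0.10. All 4 lay on the lower side, and each gap was smaller than the probe-set SD of 0.21. Vcp and Ube2j1 were also the only members with the UPRE letters, which 0.676% of all promoter windows hold.

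Members with a stress element in the window had a lower median difference than members without one. The 11 members with an ERSE or ERSE-II had a median of -0.27 and all 11 were below 0, against 53.1% of all genes above the floor. Of the 11, 6 were at least 1.2-fold lower, against 19.8% of all genes. That count came to 4 of 11 after quantile normalization, against 17.7% of all genes. With median centring or loess it came to 3 of 11, against 16.3% and 17.1% of all genes. Under these 2 settings Hspa5, Calr and Herpud1 no longer passed 1.2-fold. The 18 members with a window but neither element had a median of -0.09, 12 of 18 were below 0, and 1 of 18 (Sel1l) was at least 1.2-fold lower. The ranges overlapped, from -0.39 to -0.04 with an element and from -0.34 to 0.26 without. These counts are a description of 2 arrays, and a match to the letters does not show that a factor binds there. Only exact letters within the window were sought, so an element with a changed letter or further away was counted as absent. The 5 genes above Control in this set, which were Edem1, Dnajb9, Pdia2, P4hb and Os9, were all among the 18 of 29 that lacked both elements. Ube2g2, the member with the highest difference, had no window. The E-box CATATG, a form of the site that MIST1 binds at its direct targets in secretory cells, was searched after the other values had been seen. It lay in the windows of none of the 29 members and in 3.91% of all windows. At so low a share few matches would be found in 29 windows. Their absence therefore does not show that these genes lack MIST1 sites.

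**Figure D3:**
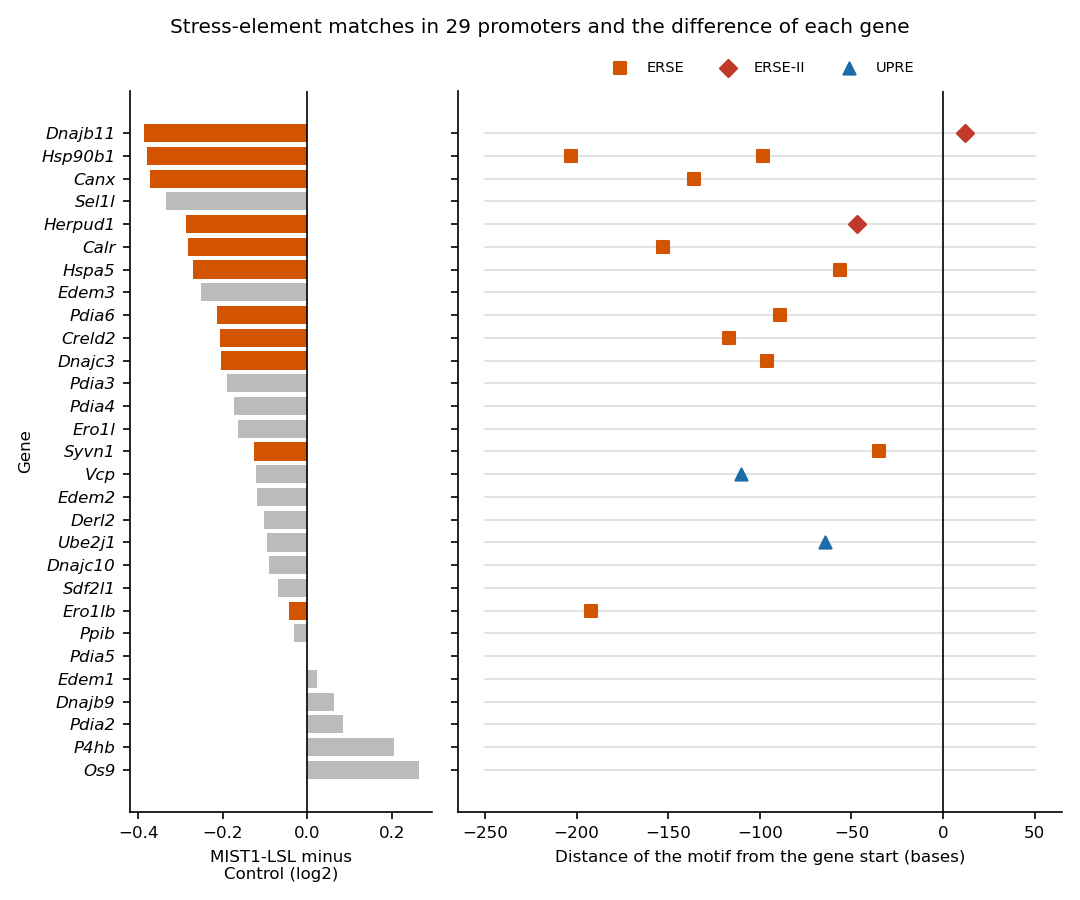
The left panel shows the difference of each of the 29 genes with a promoter window (bars, MIST1-LSL minus Control, log2; orange where an ERSE or ERSE-II is present), and the right panel the distance in bases of each element from the gene start at 0. Of the 7 genes with the lowest differences 6 have an ERSE or ERSE-II, and the 5 genes furthest to the right of 0 have none.

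Other genes of the same pathways, taken from lists of regulators, further folding factors and further degradation factors, had medians near 0. Of all genes above the floor, 53.1% were below 0, 19.8% were at least 1.2-fold lower and 16.1% at least 1.2-fold higher. The 16 regulators of the unfolded protein response had a median of 0.01, with 7 below 0 (43.8%). Of these 16 regulators, 4 were at least 1.2-fold lower (25%) and none at least 1.2-fold higher. Among them the sensor gene Atf6 read 7.11 on the MIST1-LSL array and 7.49 on the Control array, a difference of -0.37, and Creb3l2, a related membrane-bound factor, differed by -0.53 with a MIST1-LSL level of 4.46, under the floor. At the other end of this list Ern1, encoding IRE1, read 6.06 on the MIST1-LSL array and 5.81 on the Control array, a difference of 0.25, and Creb3l4 differed by 0.17. Of the other factors named above for the promoter elements, Xbp1 read 7.64 on both arrays. Nfya, Nfyb and Nfyc, which encode NF-Y, were 0.11, 0.14 and 0.16 higher on the MIST1-LSL array. The regulators held no common direction.

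The 39 further folding genes above the floor, of 45 listed, had a median of 0.00, with 19 below 0 (48.7%). Of these, 4 were at least 1.2-fold lower and 4 at least 1.2-fold higher (10.3% each), against 19.8% and 16.1% of all genes. Erp27, a disulfide isomerase family member abundant in pancreas, read 5.69 on the MIST1-LSL array and 4.77 on the Control array, a difference of 0.92, and Prdx4, an ER peroxidase, was 0.38 higher. Uggt1, the glucosyltransferase that returns unfolded glycoproteins to calnexin and calreticulin, differed by -0.36. Creld1 differed by -0.45 with a MIST1-LSL level of 4.49, under the floor. The 30 further degradation genes above the floor, of 33 listed, had a median of 0.00, with 14 below 0 (46.7%). None was at least 1.2-fold lower, and 5 were at least 1.2-fold higher (16.7%), which is near the 16.1% of all genes. The conjugating enzyme gene Ube2j2 and Svip, an inhibitor of ERAD, were 0.60 and 0.57 higher, and March6, an ER ubiquitin ligase, and Bag6, a holdase for extracted proteins, differed by -0.24 and -0.23. No gene of these 3 lists was 2-fold apart. No test of the difference between these lists and the 33 members was possible with 1 array per genotype.

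**Figure D4:**
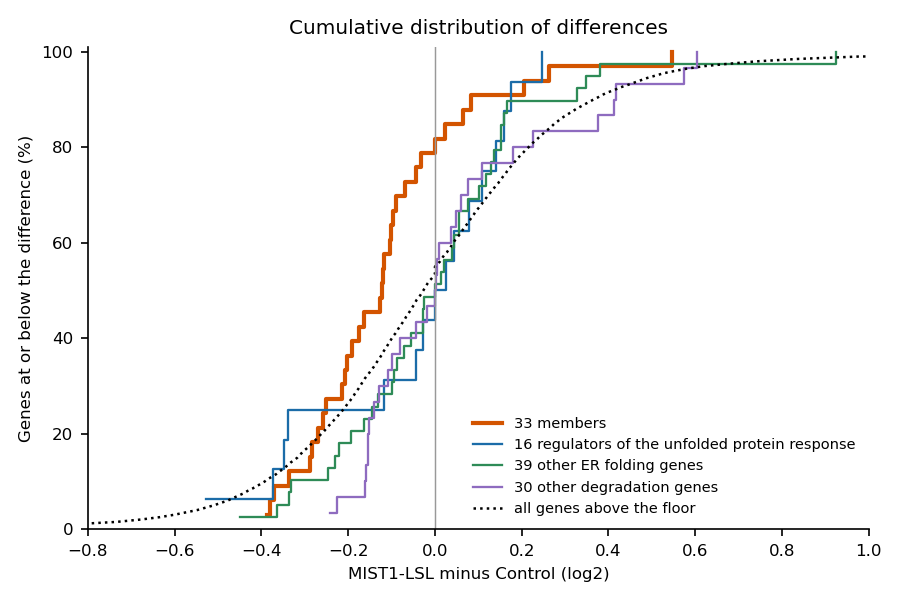
Cumulative share of genes (vertical axis, percent) at or below each difference (horizontal axis, MIST1-LSL minus Control, log2) for the 33 members, the 3 lists of other pathway genes and all genes above the floor. The curve of the members lies to the left of the others over most of its range, with medians of -0.12 for the members, 0.01 for regulators, 0.00 for both other lists and -0.03 for all genes.

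Markers of pancreatic acinar cells, smooth muscle and plasma cells had medians outside the range of the 33 ER genes, and the medians of the other marker lists lay within it. All 11 pancreatic acinar genes were higher on the MIST1-LSL array, with a median of 6.10, a lowest value of 3.49 (Cel) and a highest of 7.84 (Pnlip). The Control level of 6 of the 11 lay under the floor of 4.62, so the size of those differences is uncertain. Their summed linear level was 14926 on the MIST1-LSL array and 336.9 on the Control array. On the same arrays Pdia2, known for its abundance in pancreas, differed by 0.08 and Ero1lb by -0.04. Pdia2 already read 10.12 on the Control array, far above the floor. Erp27, also abundant in pancreas but not among the 33 genes, was 0.92 higher. Its Control level of 4.77 was near the floor, so the size of that difference is uncertain. Markers of plasma cells, which also hold much ER, read lower on the MIST1-LSL array. All 5 markers above the floor, of 6 with a probe set and 7 listed, were below 0. Their median was -0.53, from -3.55 (Ighm) to -0.17 (Sdc1). On the MIST1-LSL array Igj (4.66), Prdm1 (4.68) and Mzb1 (4.95) were near the floor of 4.62, so the size of that median is uncertain. The summed linear level of the 5 plasma cell markers was 210.6 on the MIST1-LSL array and 649.1 on the Control array, where most of it was Ighm. The other 4 summed to 174.3 on the MIST1-LSL array and 223.7 on the Control array. Of the 5 chief cell markers 4 were below 0, with a median of -0.19 over the 5 and a lowest value of -0.71 (Pga5). The other was Bhlha15 at 0.04, which the MIST1-LSL genotype is meant to switch on. Bhlha15 therefore does not serve as a chief cell marker between these genotypes. The summed linear level of the 5 was 9912 on the MIST1-LSL array and 11342 on the Control array. Each marker with a probe set had a listed level on both arrays, and none was at 0. The part of these cell types in the differences of the ER genes was not tested.

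The remaining markers check the tissue. Parietal markers were present on both arrays, with summed linear levels of 7556 on the MIST1-LSL array and 7874 on the Control array. The median difference was -0.02 over 5 genes that included Slc26a7 at -2.49. Slc26a7 read 4.48 on the MIST1-LSL array, under the floor, so the size of its difference is uncertain. The mucous neck pair Muc6 and Tff2 had a median of -0.35, and the 3 surface pit markers a median of -0.04 that included Muc5ac at -0.74. The samples are labelled as corpus, although whole stomachs are named in the design of the series, and the squamous forestomach markers Krt5, Krt14 and Sprr1a were present on both arrays with a median difference of 0.20. The 3 smooth muscle markers were 1.16 to 1.58 higher on the MIST1-LSL array, with a summed linear level of 1390 on that array and 521.7 on the Control array. The part of these tissue differences in the ER genes was not tested either.

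**Figure D5:**
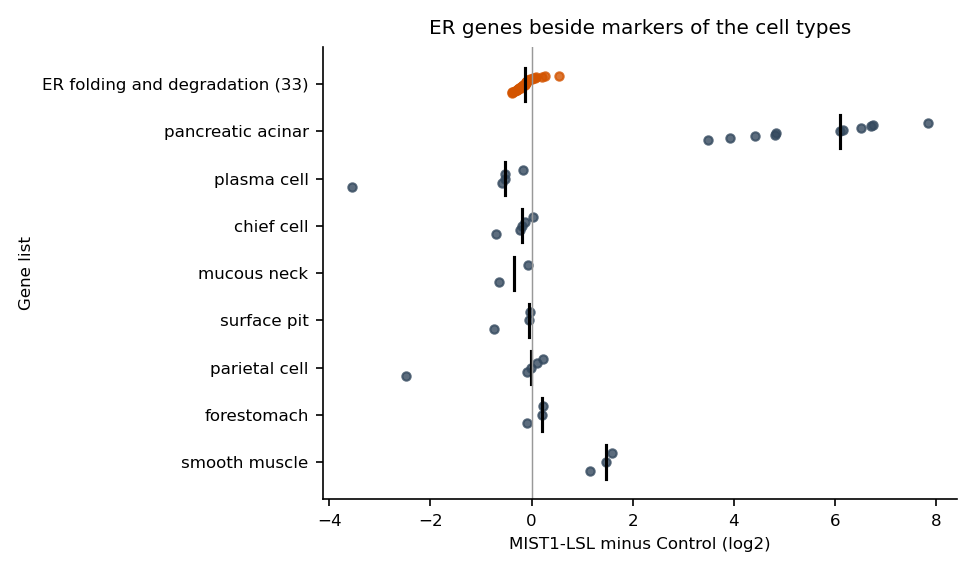
Differences (horizontal axis, MIST1-LSL minus Control, log2) of the 33 ER genes in orange and of marker genes above the floor for 8 cell types or tissues, 1 point per gene, with a bar at each median. The ER genes stay between -0.39 and 0.55, while acinar markers lie between 3.49 and 7.84 and plasma cell markers reach -3.55.

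The authors' deposited table of gene ontology enrichment, for a list they named only as the top 25 for LSL, held many ER and folding terms. The terms with the lowest p-values are given first here, and most of the others had far higher ones. All are given without a correction for the number of terms, so a low value among so many does not show enrichment. In the authors' deposited table the rough endoplasmic reticulum had p = 0.00273, with 36.4% of its genes in the list. The authors' deposited table gave p = 0.0157 for the rough ER lumen and p = 0.0413 for the regulation of apoptotic signalling induced by ER stress. The authors' deposited table gave p = 0.194 for the endoplasmic reticulum chaperone complex, p = 0.24 for the ER lumen and p = 0.625 for the ER unfolded protein response. For the terms nearest to these genes, the authors' deposited table gave p = 0.823 for the ERAD pathway and p = 0.984 for protein disulfide isomerase activity. How the list was chosen is not given, so a direction cannot be read from these values.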

How the data were processed

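Per the labels' protocols, RNA of 2 mouse stomachs was amplified and labelled with biotin; the design text names Affymetrix arrays. The authors deposited log2 levels made with RMA and Partek, per the submitters' processing notes; versions, build and annotation were not given in the sources used here. Their workbook also gives the number of probes in each probe set, and the authors deposited gene ontology results as a score, a p-value and a percent (of the genes of a term, those in the list tested). The 2 columns of linear levels in the workbook were not used, and summed linear levels were computed as 2 to the power of the log2 values.

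Of 41345 probe sets 32471 carried a gene name; 26 names turned into numbers by the spreadsheet were restored from the assignment column. Where a gene had more than 1 probe set, that of the highest mean level stood for it. A list gene without a named probe set was left out. Members, role groups, lists and thresholds were chosen with earlier results of these data known. All members are named, and of each list of other pathway genes the 2 furthest above and the 2 furthest below Control. Xbp1 and the NF-Y genes are named as well, because their products bind the promoter elements. No test between genotypes was possible. Promoter sequences were RefSeq's for GRCm38.p6, matched by symbol, accession or synonym. Protein sequences were not used here. The counting and the motif search were tested on simulated data. The alternatives tried were median centring, quantile normalization, a loess correction with span 0.3, the series table, other floors, other choices of probe set and other size rules. Python 3.11.15 was used with numpy 2.4.6, pandas 2.3.3, statsmodels 0.14.6 and matplotlib 3.10.9.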

Additional observations from a re-analysis of the deposited data

How the results depend on the processing

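The alternatives were run 1 at a time on the counts and medians of the members, the role groups and the element carriers. The count of members at least 1.2-fold lower, 7 as reported, came to 4 with median centring and to 4 with loess, both of which remove the shift of -0.04 between the array medians. The count of members at least 1.2-fold higher, 1 as reported, came to 2 with quantile normalization, 2 with median centring and 2 with loess, where Os9 joined Ube2g2, and to 0 with the floor at the 75th percentile, which left out Derl2 and Ube2g2. The count of element carriers at least 1.2-fold lower, 6 as reported, came to 3 with median centring and 3 with loess. These counts of higher members and of carriers were added after the values had been seen. The other counts run stayed within 1.5 times, and the other medians kept their direction. The gap between the median of the members and that of all genes was -0.10 as reported and ran from -0.12 without a floor to -0.09 with the series table. The same 1.2-fold rule called 16.3% to 20.1% of all genes across settings. Pdia5, which read the same on both arrays, took a sign under quantile normalization, median centring, loess and the series table, and Ppib, at -0.03, turned positive under median centring and loess. With median centring 1 member, Ube2g2 at 0.59, passed 1.5-fold, and none did under the other settings. Signal against background could not be judged without detection calls, and 1 array per genotype limits every difference.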

Other observations

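Outside the ER list, few other genes carry the stress elements in their promoter window, and most of those above the floor also read lower on the MIST1-LSL array. The elements were found for 17 such genes, and this set was examined after the values of the ER genes had been seen. Alg12 shares its ERSE with Creld2 and is left out of the counts, which leaves 16 genes, 10 with an ERSE and 6 with an ERSE-II. Of the 16, 13 were below 0, 6 were at least 1.2-fold lower and 1 was at least 1.2-fold higher, with a median of -0.21. The 11860 genes with a window but neither element had a median of -0.02, with 52.7% below 0 and 18.4% at least 1.2-fold lower. The genes with an ERSE had a median of -0.30 and those with an ERSE-II a median of -0.11.

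Alg12, a mannosyltransferase of glycan assembly in the ER, read 5.45 on the MIST1-LSL array and 5.91 on the Control array, a difference of -0.46. Its ERSE is the same site as that of Creld2. Hnrnpa3, an RNA-binding protein, read 7.59 on the MIST1-LSL array and 8.06 on the Control array, a difference of -0.46. Pan2, a deadenylase subunit, read 5.28 on the MIST1-LSL array and 5.78 on the Control array, a difference of -0.50. Adcy3, an adenylate cyclase, differed by -0.37 with a MIST1-LSL level of 4.69, near the floor. Xlr3a differed by -1.04 with a MIST1-LSL level of 4.52, under the floor, and belongs to a family of near-identical copies that its probes may not separate. At the upper end Rcl1, a nucleolar protein, was 0.36 higher and the imprinting factor gene Zfp57 0.14 higher. Derl3, an ERAD component with an ERSE that was not among the 33 genes, read 5.05 on the MIST1-LSL array and 5.01 on the Control array. Nucb1 and Krtcap2, each with an ERSE-II, differed by -0.10 and -0.03.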
